A study of Mus musculus with 6 samples.

Results

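Dapl1, Ass1, Steap3, Slc6a2, Lrrtm1, Ermn and Plekhf1 are 7 genes of unrelated function with lower transcript levels in newborn mouse retinas with a conditional deletion of Lhx2. They were picked by name from the genes of largest fall, 7 of the 39179 gene rows of the deposited count files, and all 7 were among the 16691 genes with enough reads to test. The values that picked them were their counts in conditional knockout (cKO) against control retinas with library set in the model, so that difference is described below and not tested. Bulk RNA-seq was made from retinas at postnatal day 0.5, with 3 libraries in each group, from mice of a mixed background that is mostly CD-1. The cKO mice carried the genotype Lhx2 lox/lox; Pdgfrα-Cre, in which the Pdgfra promoter drives Cre recombinase. The control mice carried Lhx2 lox/lox without Cre, so both groups have the floxed alleles. In bulk retina fewer cells of one type and less RNA per cell cannot be told apart.

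Lhx2 is a LIM homeodomain transcription factor that keeps retinal progenitor cells in a dividing, multipotent state, and its loss in development is known to disturb the balance of progenitors, neurons and Müller glia. Progenitors at birth still divide and carry a characteristic set of transcripts, among them Rax, Ccnd1 and Fgf15. The 7 genes belong to no common pathway. Dapl1 encodes a small protein related to death-associated protein and restrains proliferation in the retinal pigment epithelium of mice, Ass1 and Steap3 encode enzymes, Slc6a2 a transporter, and Lrrtm1, Ermn and Plekhf1 proteins of synapse, cytoskeleton and endosome.

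The libraries held 31483170 to 66947478 reads counted on genes and fell into 2 sets that cross genotype. Set A (cKO 1, cKO 2 and control 2) had over 2.9% of all counts ambiguous between genes, and set B (cKO 3, control 3 and control 4) had less. Mitochondrial transcripts made up 1.15 to 1.79% of the reads on genes in set A libraries and 7.14 to 9.55% in those of set B. By Y-linked transcripts the 3 cKO libraries and control 3 were read as female, and controls 2 and 4 as male. Lhx2 itself stood at 252, 287 and 224 CPM (read counts scaled to library size by TMM) in cKO 1, 2 and 3, and at 399, 266 and 258 CPM in controls 2, 3 and 4. In the edgeR model that holds library set its log2 fold change was -0.40 (SE 0.10, adjusted p = 0.0338). That call was lost without cKO 2, cKO 3, control 2 or control 3 (-0.54 to -0.22, adjusted p 0.0602 to 0.414), and when sex was added (-0.34, adjusted p = 0.371). Without library set in the model it was lost too, as 0 of all tested genes were called lower there. The 11 markers of retinal neurons and progenitors (Rax, Six6, Crx, Otx2 and Pou4f2 among them) summed to 2490 to 2975 CPM in cKO and 3008 to 3340 CPM in control libraries, and none was at 0.

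All 7 genes were lower in cKO retinas within each library set. Their log2 differences within single sets ran from -2.32 (Slc6a2, set A) to -1.07 (Slc6a2, set B). In the model over both sets the 7 genes stood at 30.1 to 36.2% of the control level. The log2 fold changes with library set as a term ran from -1.73 to -1.47 with a median of -1.60, against a median of -0.00098 over all tested genes. A value of -1 or below, which all 7 genes had by their choice, was reached by 0.995% of tested genes. All 7 were called lower in that model, as were 939 of all tested genes (5.63%, beside 6.36% called higher), and by size of fall they ranked 13th to 27th among those 939. That count follows from the choice of the genes, and it came to 6 without control 2 (Slc6a2 lost), 4 without cKO 3 (Plekhf1, Steap3 and Lrrtm1 lost) and 4 with sex in the model (Slc6a2, Plekhf1 and Steap3 lost). In 6 of the 7 genes every cKO library lay below every control, a pattern shown by 5.54% of tested genes, and Ermn was the exception. Compared within each set, every cKO library lay below the controls for all 7 genes and for 23.8% of tested genes. Without library set in the model edgeR called 0 of the 7 genes and 0 of all tested genes lower. In that model 6 of the 7 (not Plekhf1) and 461 of all tested genes (2.76%) were lower at an unadjusted p under 0.05. The count of 6 also follows from the choice of the genes in these same libraries and tests nothing. The part of library set and of sex in the size of the falls was not tested.

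**Figure D1:**
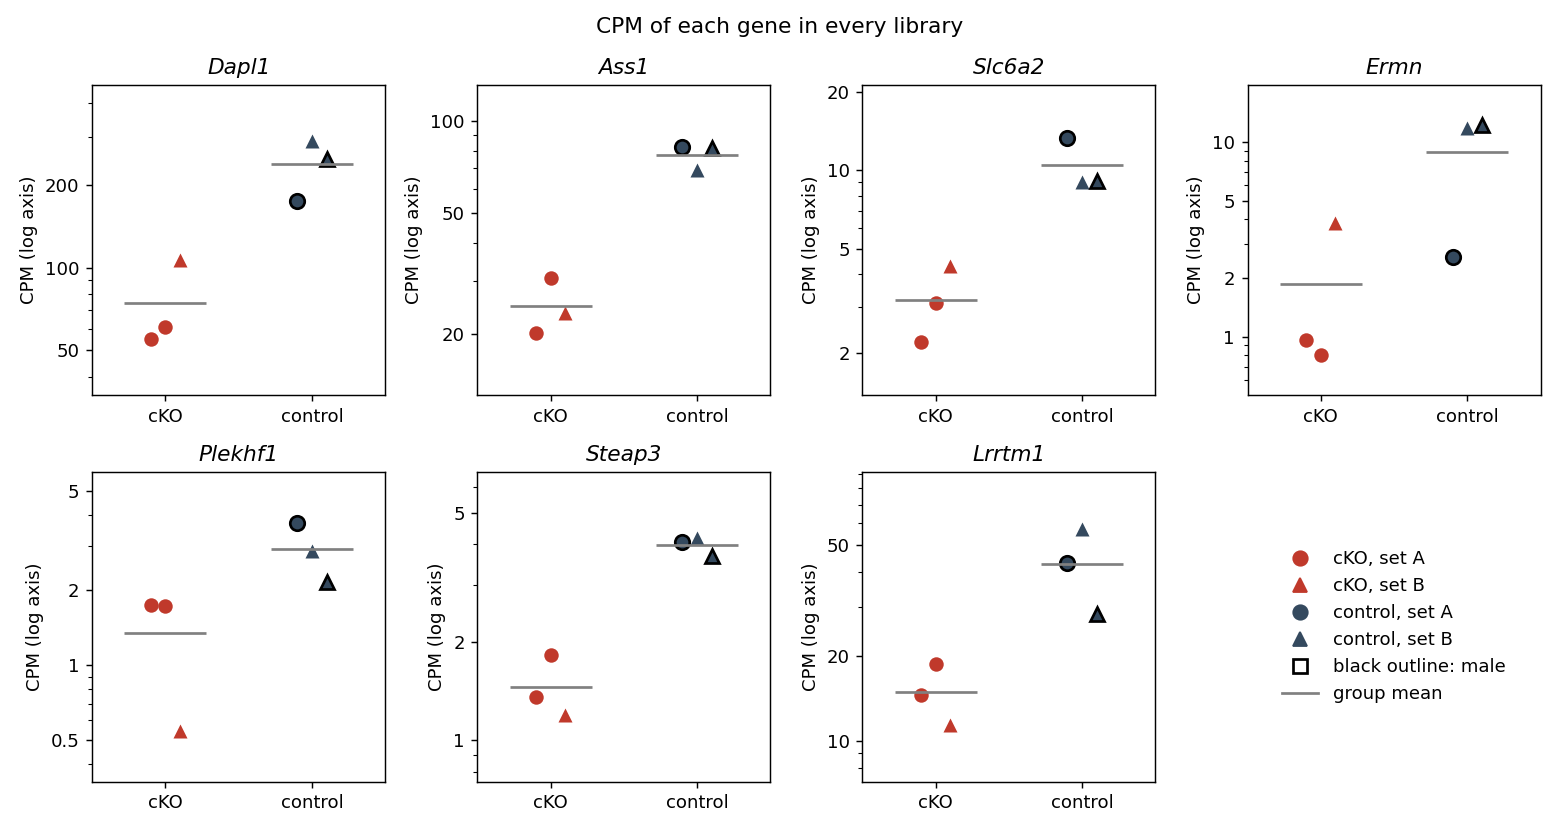
CPM of each gene (log axis) in the 3 cKO and 3 control libraries. Circles are set A, triangles set B, black outlines male mice and grey lines group means. In every panel but that of Ermn the cKO points lie below all control points, and in that of Ermn set A is low in both groups.

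Per length, Dapl1 was by far the most abundant of the genes. Levels in RPKM (CPM per kilobase of exon) averaged 109 ± 42.2 in cKO and 351 ± 86.7 in control libraries for Dapl1, then 10.3 ± 2.19 and 32.2 ± 3.10 for Ass1, and 4.92 ± 1.23 and 14.2 ± 4.76 for Lrrtm1 (SD, n = 3 each). Ermn had 0.515 ± 0.471 RPKM in cKO and 2.45 ± 1.51 RPKM in controls, and Slc6a2 had 0.509 ± 0.166 and 1.66 ± 0.385 RPKM. Steap3 had 0.255 ± 0.0574 RPKM in cKO and 0.696 ± 0.0467 RPKM in controls, against 0.255 ± 0.131 and 0.555 ± 0.151 RPKM for Plekhf1. The neighbours Ermn and Slc6a2, and likewise Steap3 and Plekhf1, differed by less than the larger of their SDs in both groups.

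Dapl1 (ENSMUSG00000026989) lies on GRCm38 chromosome 2, 59484653 to 59505020, plus strand, with 5 exon blocks. It had 55.0, 60.7 and 107 CPM in cKO 1, 2 and 3, against 175, 291 and 251 CPM in controls 2, 3 and 4. The highest cKO library, from set B, stayed below the lowest control, from set A. Its log2 fold change was -1.47 (SE 0.10), or -1.60 within set A alone and -1.33 within set B alone. Between the female libraries of set B, cKO 3 and control 3, the difference was -1.44. Its paralog Dap, which restrains autophagy, was at 21.1 ± 2.16 CPM in cKO and 25.1 ± 4.03 CPM in controls (SD, n = 3 each; log2 fold change -0.32, SE 0.12, adjusted p = 0.138, edgeR) and was not called. Mitf, the pigment cell factor that Dapl1 acts on in the pigment epithelium of mice, was at 0.49 on the same scale (SE 0.19, adjusted p = 0.130). Of all 7 genes of that list, which also holds regulators of autophagy, 0 passed in edgeR, against 3 higher and 2 lower at an unadjusted p under 0.05, 1 lower in DESeq2 and 0 in limma-voom. The RefSeq promoter (GRCm38.p6), shown because Dapl1 is the most abundant of the genes, is given here as the 250 bases before the start, with matches to the motifs searched in capitals, on the plus strand of chr2:59484403-59484652.
Dapl1: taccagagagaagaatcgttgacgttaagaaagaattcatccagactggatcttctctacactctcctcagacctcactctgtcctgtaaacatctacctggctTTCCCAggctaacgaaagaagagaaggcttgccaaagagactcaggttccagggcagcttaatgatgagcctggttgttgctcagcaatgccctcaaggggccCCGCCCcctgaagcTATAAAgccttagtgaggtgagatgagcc
The capitals mark TTCCCA (the reverse complement of TGGGAA, the core bound by the Notch effector RBPJ), CCGCCC (the reverse complement of the GC box GGGCGG) and the TATA box TATAAA, which begins 29 bases before the start.

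Ass1 (ENSMUSG00000076441; chromosome 2, 31470207 to 31520672, plus strand, 16 exon blocks) encodes argininosuccinate synthase, which joins citrulline and aspartate in the urea and nitric oxide cycles. It stood at 20.3, 30.6 and 23.5 CPM in cKO 1, 2 and 3, against 82.1, 69.0 and 81.9 CPM in controls 2, 3 and 4. Each group was tight and the gap between them was wider than either. The log2 fold change was -1.69 (SE 0.16), nearly the same within set A (-1.72) and set B (-1.68), and -1.55 between the female libraries of set B. The next enzyme of the cycle, Asl, had 25.7, 22.8 and 10.8 CPM in cKO 1, 2 and 3 and 22.0, 10.5 and 10.1 CPM in controls 2, 3 and 4 (log2 fold change 0.10, adjusted p = 0.616), where set A was high in both groups. Of 19 tested genes of citrulline, arginine and nitric oxide metabolism 3 rose, 2 fell and 14 did not pass, with a median log2 fold change of 0.10. Slc25a13, the mitochondrial carrier that exports aspartate, fell to 9.30 ± 1.48 CPM in cKO, against 19.1 ± 0.781 CPM in controls (SD, n = 3 each; -1.01, SE 0.15, adjusted p = 0.00436). Odc1, ornithine decarboxylase, also fell (-0.50, SE 0.09, adjusted p = 0.00908). The rising genes were the arginine transporter gene Slc7a2 (1.29, SE 0.16), Gatm of creatine synthesis (0.75, SE 0.15) and Ddah1, which degrades methylated arginines (0.56, SE 0.10). Slc7a2 was uneven between sets, with 26.8, 27.95 and 87.2 CPM in cKO 1, 2 and 3 and 15.0, 27.1 and 26.8 CPM in controls 2, 3 and 4. The urea cycle genes Otc, Cps1 and Nags, like Nos2, did not reach the count filter. The Ass1 promoter, 75.6% G and C, is shown as the most GC-rich of the windows, on the plus strand of chr2:31470020-31470269, with its single motif match, a GC box, in capitals.
Ass1: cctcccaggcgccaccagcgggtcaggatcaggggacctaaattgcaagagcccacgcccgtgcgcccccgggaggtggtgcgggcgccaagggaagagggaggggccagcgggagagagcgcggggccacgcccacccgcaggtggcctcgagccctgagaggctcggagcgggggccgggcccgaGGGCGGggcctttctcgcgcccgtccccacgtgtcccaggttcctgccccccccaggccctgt

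Steap3 (ENSMUSG00000026389; chromosome 1, 120190757 to 120272705, minus strand, 9 exon blocks) encodes a ferrireductase of endosomes that developing red cells of mice need for iron uptake from transferrin. It was counted at 1.36, 1.82 and 1.19 CPM in cKO 1, 2 and 3, against 4.07, 4.19 and 3.68 CPM in controls 2, 3 and 4. These rest on 76, 132 and 35 reads in cKO 1, 2 and 3, and the 95% exact Poisson interval of cKO 3, 0.830 to 1.66 CPM, covers counting error only and lies below the 3.03 to 4.43 CPM of control 4. Its controls lay close together. The log2 fold change was -1.51 (SE 0.25), -1.34 within set A and -1.68 within set B. Of 21 tested genes of iron uptake, reduction, storage and export 2 rose, 0 fell (1 at an unadjusted p under 0.05, 0 in DESeq2 and limma-voom) and 19 did not pass (median 0.11). Steap1, a gene of the same family, rose to 0.801 ± 0.107 CPM in cKO, against 0.140 ± 0.0538 CPM in controls (SD, n = 3 each; 2.33, SE 0.42, adjusted p = 0.00959). The iron exporter gene Slc40a1 rose to 4.03 ± 0.514 CPM in cKO, against 0.930 ± 0.387 CPM in controls (2.03, SE 0.30, adjusted p = 0.00478). Steap2 (0.11, adjusted p = 0.574) and the transferrin receptor gene Tfrc (0.08, adjusted p = 0.612) were not called, and Steap4 was below the filter. Steap3 is also known as a p53-induced gene, and of 12 other p53 targets Aen fell (-0.35, adjusted p = 0.0470), 0 rose (2 at an unadjusted p under 0.05, 1 in DESeq2, 0 in limma-voom) and 11 did not pass (median 0.10).

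Slc6a2 (ENSMUSG00000055368; chromosome 8, 92960079 to 93001667, plus strand, 15 exon blocks) encodes the noradrenaline transporter. It had 2.21, 3.11 and 4.29 CPM in cKO 1, 2 and 3, against 13.3, 9.07 and 9.08 CPM in controls 2, 3 and 4. The lone control of set A was the highest library and the lone cKO of set B the highest of its group, so the difference was -2.32 within set A and -1.07 within set B. Over both sets the log2 fold change was -1.73 (SE 0.27), and it was -1.08 without control 2 and -2.28 without cKO 3. Synthesis of its substrate was barely represented, with Dbh at 0.018, 0 and 0.034 CPM in cKO 1, 2 and 3 and listed at 0 in all controls. Hand2, a factor of noradrenergic neurons, had 0 reads in every library. Of 9 tested genes of monoamine synthesis, transport and breakdown 2 rose, 0 fell (1 at an unadjusted p under 0.05, 1 in DESeq2, 0 in limma-voom) and 7 did not pass (median 0.26). These were the vesicular transporter gene Slc18a2, at 52.9 ± 5.27 CPM in cKO and 26.9 ± 5.33 CPM in controls (SD, n = 3 each; 0.97, SE 0.15, adjusted p = 0.00621), and the serotonin transporter gene Slc6a4, at 6.18 ± 0.824 and 3.36 ± 0.676 CPM (0.78, SE 0.19, adjusted p = 0.0324). The dopamine transporter gene Slc6a3 was listed at 0 in all controls and reached 0.161 CPM in cKO 1. Of 13 other tested genes of the SLC6 family Slc6a17 (0.52) and Slc6a15 (0.44) rose, 0 fell, also in DESeq2, limma-voom or at an unadjusted p under 0.05, and 11 did not pass (median 0.04).

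Lrrtm1 (ENSMUSG00000060780; chromosome 6, 77242689 to 77257791, plus strand, 3 exon blocks) encodes a postsynaptic adhesion protein with leucine-rich repeats that binds neurexins. Its level was 14.6, 18.8 and 11.4 CPM in cKO 1, 2 and 3, against 43.3, 57.4 and 28.5 CPM in controls 2, 3 and 4. The cKO libraries were all lower, while control 3, female, and control 4, male, were the highest and lowest controls though both belong to set B. The log2 fold change was -1.63 (SE 0.27), or -1.38 within set A alone and -1.82 within set B alone. It was -2.33 between the female libraries of set B and -2.35 with sex in the model, and the part of sex in this was not tested. Lrrtm1 lies inside Ctnna2, a catenin gene on the opposite strand, with 0 shared exon bases. Ctnna2 had 157, 155 and 120 CPM in cKO 1, 2 and 3 against 121, 87.3 and 81.9 CPM in controls 2, 3 and 4, and rose (0.43, SE 0.08, adjusted p = 0.0105). Of 16 tested genes of LRRTM, neurexin and neuroligin adhesion 4 rose, 0 fell by any of those counts and 12 did not pass (median 0.25). Besides Ctnna2 these were Cbln1, a secreted partner of neurexins, at 18.3 ± 3.85 CPM in cKO and 8.29 ± 1.87 CPM in controls (1.32, SE 0.13, adjusted p = 0.000714; SD, n = 3 each), Lrrtm2 (0.60, adjusted p = 0.0147) and Nlgn3 (0.55, adjusted p = 0.0267). The other family members Lrrtm3 (0.38, adjusted p = 0.236) and Lrrtm4 (0.26, adjusted p = 0.451) were not called.

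Ermn (ENSMUSG00000026830; chromosome 2, 58045113 to 58052864, minus strand, 3 exon blocks) encodes ermin, an actin-binding protein of myelinating oligodendrocytes. It had 0.964, 0.802 and 3.85 CPM in cKO 1, 2 and 3, against 2.58, 11.8 and 12.3 CPM in controls 2, 3 and 4. The difference between sets was larger than that between groups, and cKO 3 of set B stood above control 2 of set A. Within the sets the groups did not overlap and the differences were close, -1.51 in set A and -1.64 in set B, with a log2 fold change of -1.60 (SE 0.18). The exons share 237 bases with those of Galnt5 on the opposite strand, which reached 0.014 CPM in cKO and 0.180 CPM in control libraries. Whether counting used strand is not known from the labels. Of 13 oligodendrocyte markers Opalin, Mobp and Sox10 were below the filter, and the list summed to 89.6 to 178 CPM in cKO and 97.9 to 217 CPM in controls. Of its 10 tested genes 2 rose, Mal and Cldn11, and 1 fell, the myelin enzyme gene Cnp (-1.03, adjusted p = 0.00136). Mal was low, with 0.32, 0.35 and 1.36 CPM in cKO 1, 2 and 3 and 0, 0.060 and 0.17 CPM in controls 2, 3 and 4. Cnp had 60.4, 71.5 and 18.5 CPM in cKO 1, 2 and 3 and 120, 41.7 and 44.9 CPM in controls 2, 3 and 4. Its groups overlapped, and set A was high in both. Of 11 genes of ezrin, radixin, moesin and other linkers of membrane and actin 3 fell, 2 rose and 6 did not pass (median -0.18). The falls were Slc9a3r1 (-0.57, adjusted p = 0.0147), Epb41l2 (-0.53, adjusted p = 0.0124) and moesin, Msn (-0.52, adjusted p = 0.0269), and the rises were Slc9a3r2 (0.60, adjusted p = 0.0274) and Epb41l1 (0.37, adjusted p = 0.0499).

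Plekhf1 (ENSMUSG00000074170; chromosome 7, 38216972 to 38228016, minus strand, 2 exon blocks) encodes a protein of endosomes and lysosomes with a lipid-binding FYVE domain. It had 1.75, 1.73 and 0.545 CPM in cKO 1, 2 and 3, against 3.74, 2.87 and 2.15 CPM in controls 2, 3 and 4. The lowest value rests on 16 reads, with a 95% exact Poisson interval of 0.311 to 0.885 CPM for counting error alone, and lies below the 1.66 to 2.75 CPM of control 4. The intervals of cKO 1 (1.42 to 2.13 CPM) and of control 4 overlap across the sets. The log2 fold change was -1.53 (SE 0.31), the largest error among the 7 genes, or -1.08 within set A alone and -2.10 within set B alone. It was -2.20 without control 2 and -1.08 without cKO 3. Plekhf2, its paralog, was at 46.2, 43.1 and 15.6 CPM in cKO 1, 2 and 3 and 53.9, 19.2 and 15.1 CPM in controls 2, 3 and 4 (-0.21, adjusted p = 0.289), low in set B in both groups. Of the 17 genes of endosomal phosphoinositide and lysosome function 0 rose and 0 fell in edgeR (median -0.06), against 0 and 2 at an unadjusted p under 0.05, 0 and 1 in DESeq2 and 0 and 0 in limma-voom. The Plekhf1 promoter is shown as the single-start promoter of the genes that holds the homeodomain core TAATTA, on the minus strand of chr7:38227995-38228244, with matches in capitals.
Plekhf1: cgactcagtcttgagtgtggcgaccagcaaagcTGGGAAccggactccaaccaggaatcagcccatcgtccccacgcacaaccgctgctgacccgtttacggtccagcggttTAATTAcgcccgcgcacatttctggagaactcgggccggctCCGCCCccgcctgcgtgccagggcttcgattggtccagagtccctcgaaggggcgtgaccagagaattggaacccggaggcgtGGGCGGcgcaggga
TAATTA begins 138 bases before the start, TGGGAA begins 217 bases before it, and the other capitals are GC boxes on either strand.

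Promoters of 6 of the 7 genes were matched in RefSeq, in 9 windows of 250 bases, since Steap3 has 4 annotated starts. Each window was searched on both strands for 5 motifs of 6 letters. The homeodomain core TAATTA was present in 2 of the 9 windows (Plekhf1 and a start of Steap3), against 4.84% of 32851 promoter windows, and the RBPJ core TGGGAA in 3 of 9 against 21.6%. CAGCTG, an E-box read by proneural factors, was present in 2 of 9 windows, both of Steap3, against 13.0% of all windows. The GC box GGGCGG was present in 5 of 9 windows against 32.7%. The TATA box TATAAA was in 1 of 9 against 12.4%. The Lrrtm1 window held none of the 5. Such matches describe letters and are not binding sites.

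The difference between library sets, which the choice of genes did not use, varied among the 7 genes. With genotype held in the model, edgeR called 3 of the 7 between sets, while 63.7% of all tested genes were called (31.2% higher and 32.5% lower in set A). Ermn was lower in set A (log2 difference -2.18, SE 0.18, adjusted p = 1.24e-05), as was Dapl1 (-0.76, SE 0.10, adjusted p = 0.000151). Plekhf1 was higher in set A (1.01, SE 0.32, adjusted p = 0.0203), a call lost without cKO 3 (0.55, adjusted p = 0.200). Ass1 (0.12, adjusted p = 0.520), Steap3 (0.21, adjusted p = 0.481), Lrrtm1 (0.26, adjusted p = 0.409) and Slc6a2 (-0.02, adjusted p = 0.960) were not called. Lrrtm1 was called higher in set A without control 3 (0.60, adjusted p = 0.00996), with sex added to the model (0.57, adjusted p = 0.0103), or with no filter on low counts (0.34, adjusted p = 0.0198).

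**Figure D2:**
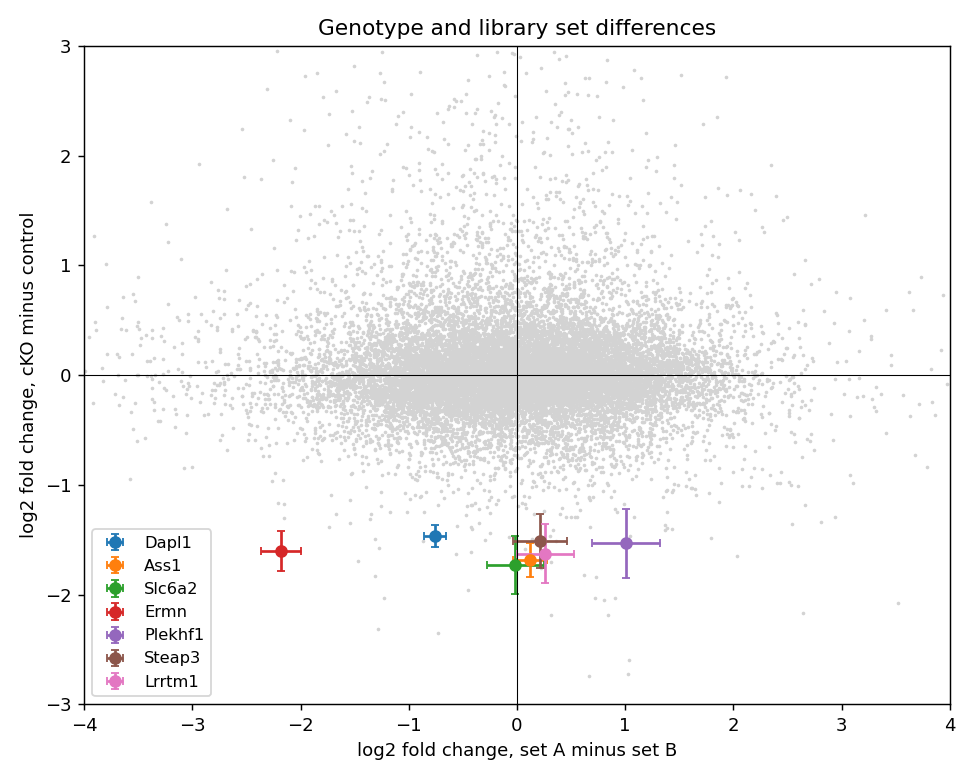
Log2 fold change of cKO minus control against that of set A minus set B, both from 1 edgeR model. Coloured points with SE bars are the 7 genes and grey points all tested genes, of which 199 lie outside the axes. The 7 genes share a narrow band of genotype difference, by which they were chosen, and spread from -2.18 for Ermn to 1.01 for Plekhf1 along the set axis.

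The cKO minus control difference itself was compared between the sets by an interaction term. In edgeR 0 of the 7 genes and 0.024% of all tested genes passed, and DESeq2 and limma-voom also called 0 of the 7. At an unadjusted p under 0.05 the test gave 1 of the 7, Slc6a2, and 704 of all tested genes (4.22%). Slc6a2 had the largest interaction in size (-1.23, SE 0.37, adjusted p = 0.965), followed by Plekhf1 (1.10, SE 0.56, adjusted p = 0.975). These estimates are wide, and a p above the threshold does not show equal differences.

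Likeness to progenitor genes was measured as the root mean square difference, over the 6 libraries, between profiles of log2 CPM centred on each gene's mean. A small value means that 2 genes moved by similar amounts in the same libraries, genotype and set included, so part of the likeness follows from the choice of genes. Of the progenitor list Hkdc1, Fgf3 and Dio3 were put in because they were known to have fallen, so that their likeness is only a description of genes chosen for a fall. Steap3, Ass1 and Slc6a2 had Fgf15 and Dio3 as the nearest genes of the progenitor and cell cycle lists. Fgf15, a growth factor of progenitors, lay 0.21 from Steap3, 0.28 from Ass1 and 0.34 from Slc6a2 on the log2 scale. It had 47.8, 56.0 and 47.4 CPM in cKO 1, 2 and 3 and 173, 128 and 103 CPM in controls 2, 3 and 4. Among tested genes with at least 2 CPM and a symbol that is not a placeholder, the nearest to Ass1 was Steap3 (0.20), followed by Spon1 (0.24), and the nearest to Steap3 was Spon1 (0.17), a secreted matrix protein gene, followed by Ass1 and Pir (both 0.20). Slc6a2 was nearest to Ass1 (0.31), Jcad (0.33) and Fgf15 (0.34).

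Lrrtm1 also lay among these genes, with Dio3, the deiodinase that inactivates thyroid hormone, nearest at 0.21, then Spon1 (0.22) and Steap3 (0.25). Dio3 had 4.87, 6.18 and 5.07 CPM in cKO 1, 2 and 3 and 19.8, 19.8 and 12.4 CPM in controls 2, 3 and 4, so both genes were lowest among the controls in control 4. Dapl1 was nearest to Rasef (0.17), Bves (0.23) and Lrrfip1 (0.26), and among the progenitor genes to Sox8 (0.28), a gliogenic factor with 52.8, 70.8 and 91.0 CPM in cKO 1, 2 and 3 and 128, 195 and 176 CPM in controls 2, 3 and 4. Both Dapl1 and Sox8 were lowest in set A within each group. Plekhf1 was nearest to Cox4i2 (0.26), Dlx3 (0.28) and Cmtm7 (0.28), and of the progenitor genes to Hkdc1 (0.38), a hexokinase gene, and Hes1 (0.43), a Notch effector, which were lowest in cKO 3 like Plekhf1.

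Ermn had a profile farther from the progenitor and cell cycle genes. Its near genes included Ccdc15 (0.48) and Mns1 (0.51). The nearest of the listed progenitor and cell cycle genes was Sox9, at 0.83, the 445th nearest of all genes. The median difference from the progenitor list was 1.33 for Ermn and 0.49 to 0.71 for the other 6 genes, against 1.56 and 0.86 to 1.01 from all tested genes. Without Hkdc1, Fgf3 and Dio3 the medians from the progenitor list were 1.28 for Ermn and 0.55 to 0.78 for the other 6. The 7 genes were chosen for a fall, and most genes of the progenitor list fell too. Smaller differences from that list than from all tested genes thus follow at least in part from the choice and test nothing. Among the 7 themselves the closest pair was Ass1 with Steap3 (0.20) and the farthest Ermn with Plekhf1 (1.63).

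**Figure D3:**
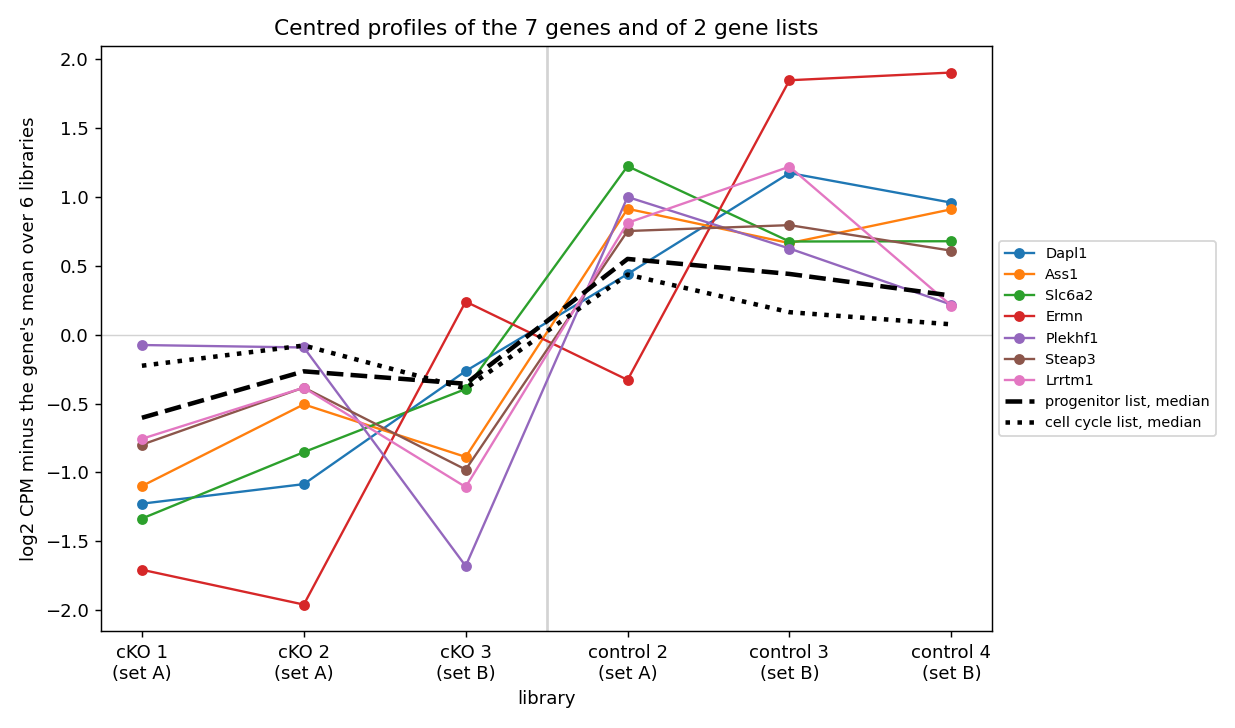
Log2 CPM of each gene minus its mean over the 6 libraries, with lines that join the values of 1 gene across libraries, beside the medians of the progenitor list (dashed) and the cell cycle list (dotted). The progenitor median was -0.60, -0.27 and -0.36 in cKO 1, 2 and 3 and 0.55, 0.44 and 0.28 in controls 2, 3 and 4; 6 of the 7 genes are lower in every cKO than in every control library, over a wider range than either median.

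Most genes of the progenitor and cell cycle lists also fell. Of 26 tested progenitor genes, Lhx2 included, 18 fell, 1 rose and 7 did not pass, with a median log2 fold change of -0.74. Without Hkdc1, Fgf3 and Dio3, put in for their falls, 15 of 23 fell, with a median of -0.70. Fgf3 (-2.19, SE 0.27), Hkdc1 (-1.84, SE 0.25) and Dio3 (-1.76, SE 0.20) had the largest falls, and the secreted Wnt modulator gene Sfrp2 rose (2.71, SE 0.22, adjusted p = 0.00024). Of 26 cell cycle genes 25 fell and 0 rose, with a median of -0.56, led by Mcm5 (-0.78, SE 0.08), Mcm3 (-0.67, SE 0.12) and Tyms (-0.67, SE 0.08), which serve DNA replication. The falls in both lists together, 43, came to 15 without control 2, 21 without cKO 3, 8 with sex in the model and 0 without library set in the model.

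**Figure D4:**
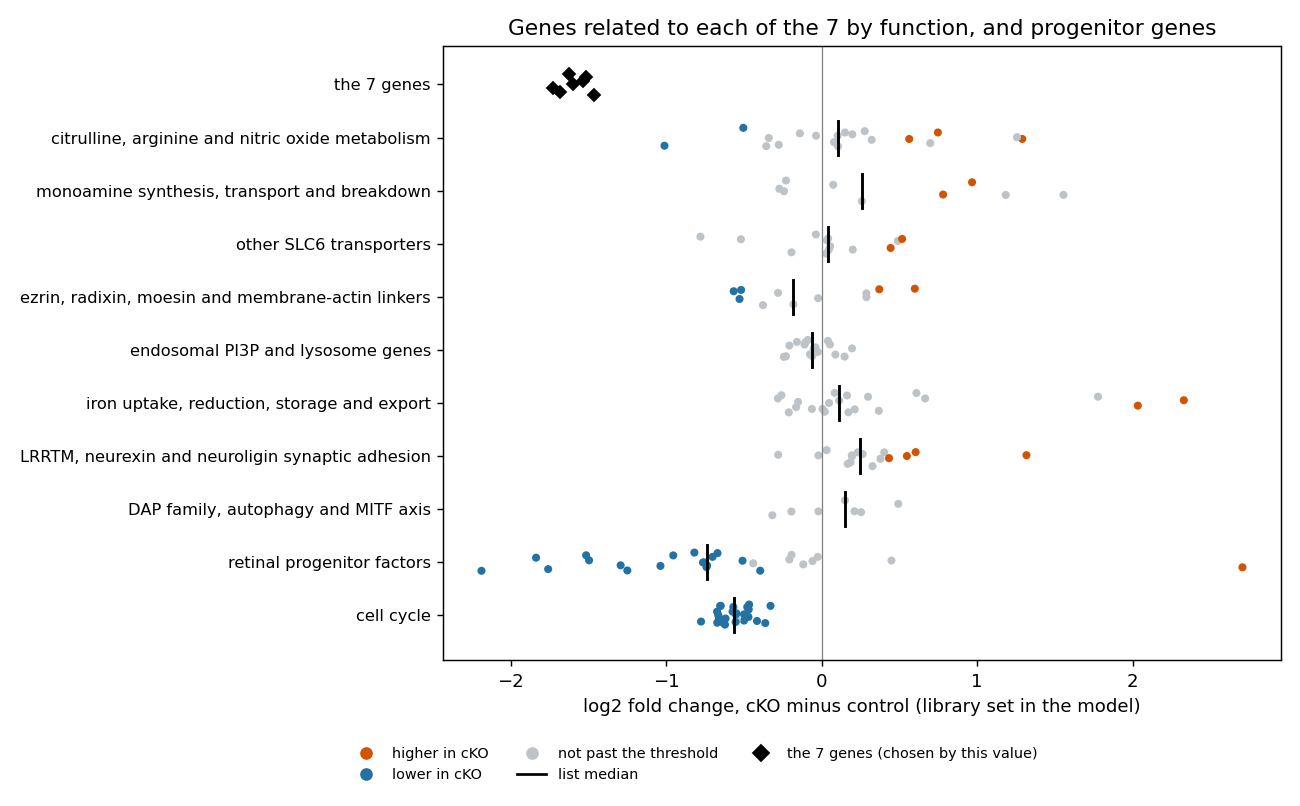
Log2 fold change of cKO minus control (library set in the model) for the 7 genes and for lists of genes related to them by function. Points are genes, coloured by call, and black bars are list medians. The functional lists centre between -0.18 and 0.26, the progenitor list at -0.74 and the cell cycle list at -0.56.

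Over the 8 functional lists set beside the 7 genes, whose tested numbers are given above by list, 5 genes fell and 15 rose. Over all tested genes 5.63% were called lower and 6.36% higher. Without control 2 the counts in the lists were 1 and 6, without cKO 3 they were 0 and 2, and without control 3 the rises came to 7. With sex in the model 0 of the list genes fell and 1 rose, and without library set in the model 0 passed in either direction. Passing genes named from the functional, p53, progenitor and cell cycle lists for size of change or as fixed members, with Lhx2, numbered 29. Genes named only for likeness or as background, such as Fgf15, Sox8 and Rax, were not counted. Of the 29, 0 still passed without library set in the model and 6 with sex in it. The count was 13 without control 2, 18 without control 3, 25 without control 4 or cKO 2, 29 without cKO 1 and 8 without cKO 3.

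Dapl1, Ermn and Ass1 share chromosome 2 with Lhx2 (38339281 to 38369733), at distances of 21.1, 19.7 and 6.8 Mb. Of 375 tested genes within 25 Mb of Lhx2, a window set with those positions known, 5.33% were called lower and 6.13% higher in cKO. On the other chromosomes 5.63% were lower and 6.47% higher, and over the single autosomes and the X chromosome the share lower ran from 4.44 to 6.84%.

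Markers of other cell types differed between the groups in several directions. Lens markers (10 genes) summed to 838 to 2205 CPM in cKO and 2.39 to 5.25 CPM in control libraries, and 9 of 9 tested rose. The 9 macrophage and microglia markers summed to 65.7 to 103 CPM in cKO and 23.1 to 45.6 CPM in controls, and 8 of them rose. The 9 red cell markers, of interest for Steap3, summed to 19.4 to 23.0 CPM in cKO and 1.98 to 13.3 CPM in controls, and 2 rose. Pigment epithelium markers, of interest for Dapl1, summed to 110 to 220 CPM in cKO and 107 to 140 CPM in controls, most of it Rlbp1, which retinal progenitors and glia share. Of its 9 tested markers 0 passed in edgeR, DESeq2 or limma-voom and 1 had an unadjusted p under 0.05, and Rpe65 was below the filter, at most 0.066 CPM. The 8 noradrenergic markers summed to 78.8 to 108 CPM in cKO and 62.4 to 95.1 CPM in controls, nearly all from Chrna3 and Npy, and 1 of its 3 tested genes rose. Of 8 endothelial markers 6 rose and Kdr, which retinal progenitors also carry, fell. The list summed to 269 to 479 CPM in cKO and 532 to 699 CPM in controls, most of it Kdr. Kdr alone had 240, 358 and 424 CPM in cKO 1, 2 and 3 and 509, 683 and 659 CPM in controls 2, 3 and 4. Of the 5 named markers of these other cell types that passed (Cnp, Mal, Cldn11, Chrna3 and Kdr), 0 still passed without library set or with sex in the model. Without cKO 3 the calls of Mal, Kdr and Chrna3 were lost, without control 2 those of Kdr and Chrna3, without control 3 that of Kdr, and without control 4 or cKO 2 that of Chrna3. The call of Mal was also lost under a filter of mean CPM of at least 1, and that of Chrna3 under RLE scaling. The part of these cells in the levels of the 7 genes was not tested.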

How the data were processed

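Retinal RNA in 6 libraries of newborn mice was sequenced. Per the labels' protocols, tissue was flash frozen, and RNeasy (Qiagen) and TruSeq (Illumina) kits served for RNA and libraries. The authors deposited raw counts of reads per gene, and the submitters' processing notes name STAR, HTSeq, edgeR and GRCm38 without versions; the strand setting is not stated there. Rows that name no gene held 26.4 to 28.8% of deposited counts and stayed out of library sizes and tests. Names, positions and exon lengths came from GENCODE vM21 (GRCm38), which matched 37693 of 39179 identifiers. Libraries of 1 group differed from each other by far more than counting noise (chi-square per degree of freedom 23.0 to 532). The labels do not say that each library is a separate animal, so p-values measure only the spread between these samples, which may be technical.

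Counts were fitted in R 4.3.3 with edgeR 4.0.16 (filterByExpr, TMM, glmQLFit, glmQLFTest) with genotype and library set as terms, and 3 residual degrees of freedom. The set is defined by the share of ambiguous counts (over 2.9%). Adjusted p-values are Benjamini-Hochberg values over all 16691 tested genes, 2-sided, with a threshold of 0.05. Fold changes are cKO minus control, and profiles and within-set differences use log2 CPM with a prior count of 2. Sex was read from 4 Y-linked genes. The models were tested on simulated counts. The 7 genes and the gene lists were chosen with earlier results of these data known. Named beside the 7 were, per list, up to 3 risen and 3 fallen genes of largest change, the nearest 3 profiles, and fixed family members; Mitf, Tfrc, Ctnna2's values by library and marker genes were added afterwards. Some genes that these rules named are not reported here. Alternatives were other scalings, filters, DESeq2 1.42.0, limma-voom (limma 3.58.1), no set term, sex, the label number as a block, and leaving out each library.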

Additional observations from a re-analysis of the deposited data

How the results depend on the processing

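All 7 genes stayed lower in cKO under each of 16 alternatives, 112 values in all, of which 99 moved by less than the residual SD of the gene. The median ran from -1.68 to -1.46. The genes were chosen for their fall in these same libraries, so the lasting sign follows from that choice and tests nothing. Counts of called genes, a different measure, varied more. Of the 7 genes 0 were called lower without library set, 4 with sex and 4 without cKO 3. Genes called lower (939) and higher (1062) came to 0 and 36 without library set in the model and 63 and 173 with sex in the model; 1592 and 1672 were lower with no filter on low counts and with DESeq2. Leaving out single libraries gave 134 to 1336 lower and 176 to 1371 higher genes. Related-list genes (5 lower, 15 higher) came to 10 lower with no filter or with DESeq2, to 0 lower and 1 higher with sex, to 0 and 0 without library set, and to 0 to 7 lower and 2 to 20 higher without single libraries. Progenitor and cell cycle falls (43) were 0 without library set, 8 with sex and 15 to 45 without single libraries. The cause of these changes was not tested, beyond the fewer samples in the last. Of the 29 list genes past the threshold that were named for size of change or as fixed members, with Lhx2, 0 remained past it without library set. The count was 6 with sex, 24 with the label number as a replicate block in place of library set, 13 without control 2 and 8 without cKO 3. Numbers 2 and 3 occur in both groups, and same-numbered libraries share a set and deviated together (correlations 0.77 and 0.67), but the labels do not pair them. The block called 1033 genes lower and gave a median of -1.61 for the 7 genes. Its genotype difference rests on numbers 2 and 3 alone, since cKO 1 and control 4 have no library of the same number. It also leaves fewer residual degrees of freedom than the model with library set. The interaction was not fitted with sex, the block, or without control 2 or cKO 3, where 1 set holds 1 genotype. Nearest genes were recomputed with a prior count of 0.5, which kept at least 2 of the 3 for each gene. Depth limits Plekhf1 and Steap3 most, with 16 and 35 reads in cKO 3.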
